A study of Mus musculus with 17 samples.

Results

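The baseline described here was the polyadenylated RNA of the hippocampus of 6 wild-type C57BL/6J mice, chosen by their label from a series of 17 hippocampal libraries. The other 11 libraries came from mice with a chromosome duplication and were not compared here. Mice 1, 2 and 3 were females aged 17.1, 17.9 and 18.0 weeks, and mice 4, 5 and 6 were males aged 17.6, 17.9 and 18.0 weeks. They carried no engineered allele, and the labels list no treatment. Each mouse had its own identifier and 1 library, so the 6 libraries were taken as biological replicates. RNA was extracted with TRIzol and made into strand-specific libraries, read as pairs of 150 bases.

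The hippocampus is the part of the temporal forebrain that forms and recalls episodic and spatial memory. Its granule cells in the dentate gyrus send mossy fibres to CA3 pyramidal cells, CA3 sends Schaffer collaterals to CA1, and the small CA2 field lies between them. Most of its neurons release glutamate, a diverse minority of interneurons releases GABA, and astrocytes, oligodendrocytes, microglia and vessels fill the tissue between them. The choroid plexus of the lateral ventricle, which secretes cerebrospinal fluid, is attached along the edge of the hippocampus, and the thalamus lies under it.

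The libraries held 30395437 to 32855277 counts assigned to genes. RPKM, the reads per kilobase of gene scaled to library size, is the authors' deposited scale and serves to compare genes with each other. CPM, the usual count relative to the library total, was computed on totals scaled by TMM (trimmed mean of M values) and serves to compare mice with each other. The spread between mice is given as the biological coefficient of variation, which is the SD over the 6 mice divided by the mean after the variance expected from counting was subtracted. Any 2 of the libraries differed by more than counting error, with a chi-square of 12.8 to 84.5 per degree of freedom, where 1 would be counting error alone. Markers of the hippocampal fields were present in all 6 mice. Prox1, the transcription factor that defines dentate granule cells, stood at 78.2 to 96.6 CPM, and Wfs1, a marker of CA1 pyramidal cells, at 125 to 162 CPM.

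Each of the 3 males stood apart in genes of tissue next to the hippocampus or of another brain region, and none of the 3 females did to that degree. Mouse 6 had nearly none of the choroid plexus transcripts that the other 5 shared. Ttr, which encodes the thyroid hormone carrier transthyretin and is the classic choroid plexus transcript, stood at 3570.4, 3837, 4797, 4180.2, 6037 and 30.2 CPM in mice 1 to 6. Folr1, the folate receptor of this epithelium (chr7:101858331-101870788, GRCm38), stood at 23.1, 26.8, 33.4, 26.4, 43.3 and 0.223 CPM. The potassium channel subunit gene Kcne2 stood at 26.0, 30.6, 30.7, 22.9, 38.3 and 0.127 CPM and the transcription factor gene Otx2 at 16.7, 16.7, 16.98, 20.1, 21.3 and 0.510 CPM. In these 4 genes mouse 6 lay far below the other 5, which lay within a factor of 2 of each other. All 18 choroid plexus genes of the list were lowest in mouse 6, and 17 of them were highest in mouse 5. Their summed level was 6018, 6284, 7486, 6398, 9269.9 and 255 CPM, a range of 36.3-fold over the 6 mice and of 1.54-fold without mouse 6. All 9 genes of ependymal cells, the ciliated lining of the ventricle, were also lowest in mouse 6. This list and those of choroid plexus and of thalamus and habenula were chosen with earlier results of these data known. The ependymal transcription factor gene Foxj1 stood at 6.43 CPM in mouse 6 against 14.9 to 24.4 CPM in the other mice. In bulk tissue, fewer cells of a type and less RNA per cell cannot be told apart.

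Mouse 5 was high for genes known from cerebellar neurons. Gabra6, the GABA-A receptor subunit typical of cerebellar granule cells (chr11:42306437-42321072), stood at 0, 0.0327, 0, 0, 55.5 and 0.191 CPM in mice 1 to 6. Cbln3, a granule cell secreted protein, stood at 0.217, 0.196, 0.409, 0.413, 126 and 1.11 CPM. For the Purkinje cells, Car8 stood at 7.05, 7.87, 8.43, 6.49, 157 and 8.38 CPM and Pcp2 at 0.835, 0.555, 0.629, 0.442, 22.7 and 0.987 CPM. Mouse 5 was far above the other 5 in each of these. Of 18 genes of cerebellar granule and Purkinje cells, a list written after this pattern was seen, 16 were highest in mouse 5. The label gives hippocampus for this mouse as for the others.

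Mouse 4 was high for genes known from thalamus and midbrain. Tnnt1, a slow troponin gene strongly expressed in thalamic relay nuclei, stood at 2.29, 1.04, 1.04, 29.6, 1.87 and 0.860 CPM. Tcf7l2, a transcription factor of thalamic and habenular neurons, stood at 10.5, 3.95, 4.90, 48.4, 6.505 and 3.92 CPM. Prkcd, a kinase gene abundant in thalamus, stood at 31.9, 24, 20.9, 174, 33.1 and 13.9 CPM. Of the 13 genes of thalamus and habenula, 11 were highest in mouse 4, and their summed level was 738 CPM against 204 to 259 CPM in the others. Gpr151, which marks the habenula itself, was not among them, at 0.472 CPM against 0.529 to 0.866 CPM. Genes of dopamine neurons were high in the same mouse. The dopamine transporter gene Slc6a3 (chr13:73536747-73578672) stood at 0.0928, 0.196, 0.157, 25.5, 0.218 and 0.127 CPM, and Th, the rate-limiting enzyme of dopamine synthesis, at 0.526, 0.457, 1, 8.90, 0.622 and 0.860 CPM. All 10 genes of midbrain dopamine neurons, also a list written after the pattern was seen, were highest in mouse 4, and 6 of them averaged 1 CPM or more.

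**Figure D1:**
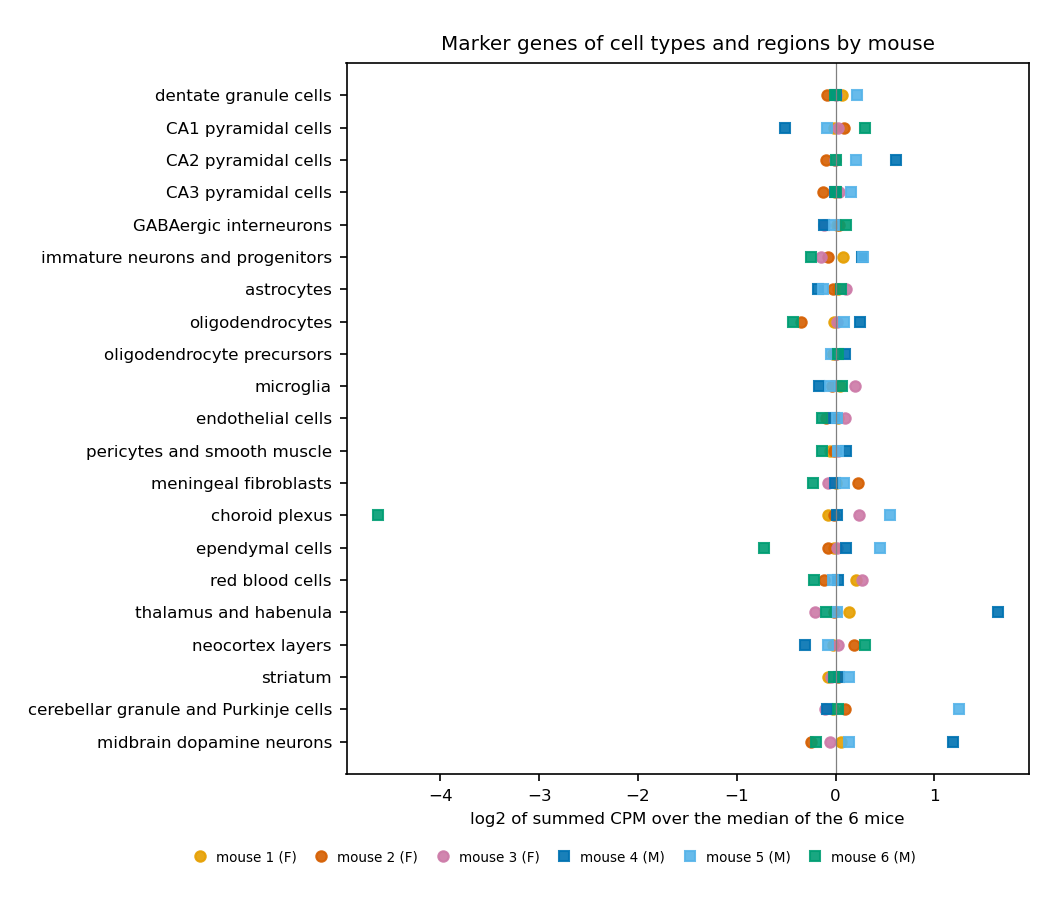
Summed CPM of each marker list in each of the 6 mice, as log2 of its ratio to the median of the 6 (horizontal axis), with circles for the 3 females and squares for the 3 males. Mouse 6 lies far to the left for choroid plexus at 255 CPM, and mice 4 and 5 lie to the right for thalamus, midbrain and cerebellum.

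**Figure D2:**
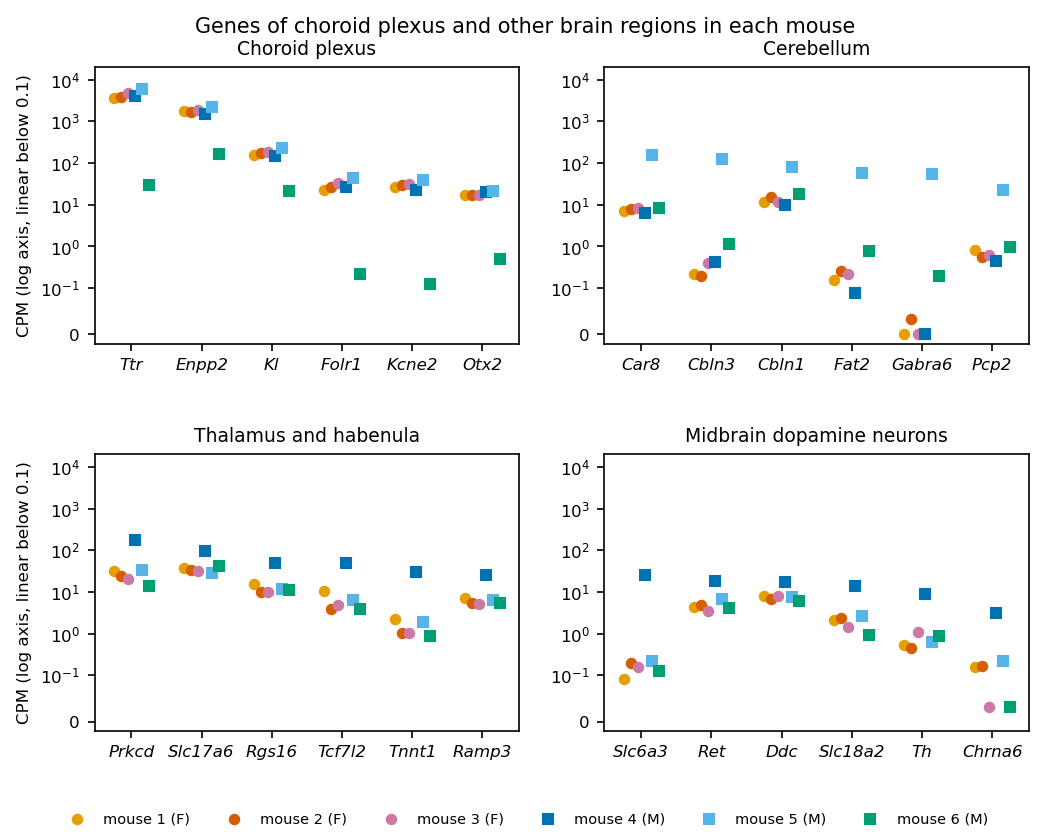
CPM (vertical log axis, linear below 0.1) of 6 genes each of choroid plexus, cerebellum, thalamus and midbrain dopamine neurons, 1 point per mouse. For Ttr mouse 6 is at 30.2 CPM, for Gabra6 mouse 5 is at 55.5 CPM, and for Slc6a3 mouse 4 is at 25.5 CPM, each apart from the other 5 mice.

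Of 55385 annotated genes, 31886 had a count in at least 1 mouse, 21247 had a count in all 6, and 14229 reached a mean of 1 RPKM. At that level 12458 were protein-coding and 1132 were long noncoding RNA genes. From 1 to 10 RPKM lay 8160 genes, which took 13.9% of the counts. The 5564 genes from 10 to 100 RPKM took 53.9%, the 489 genes from 100 to 1000 RPKM took 25.04%, and the 16 genes above that took 6.47%. The 50% of counts from the most abundant genes came from 1082 genes, and 90% came from 6391. The 10 most abundant genes held 5.601% ± 0.556 of the counts (SD, n = 6), and 8 of these 10 were encoded in the mitochondrial genome. The other two were Ttr and Slc1a2, described below.

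Protein-coding genes took 97.1% ± 0.139 of the counts (SD, n = 6). Long noncoding RNA genes took 1.70% ± 0.149 and the 2 mitochondrial ribosomal RNAs 0.872% ± 0.0942. Processed pseudogenes, copies of spliced RNAs put back into the genome, numbered 10002 in the annotation and took 0.0433%. Genes annotated as miRNA took 0.0583% of the counts but 2.501% of the summed RPKM. Much of this was 1 annotated hairpin gene of 57 bases, Gm23935 at chr16:11144125-11144181, whose 384 CPM became 6746 ± 871 RPKM (SD, n = 6). It was singled out after its value was seen. A gene this short is shorter than 1 read of 150 bases, so its RPKM is no measure of a mature miRNA, and genes under 200 bases together held 0.0859% of the counts and 3.13% of the summed RPKM.

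The most abundant nuclear transcripts were of varied function. Ttr led with 3171 ± 1715 RPKM (SD, n = 6), an average that mouse 6 at 24.8 RPKM pulled down from 2986 to 5145 RPKM in the others. Cpe, the carboxypeptidase that trims neuropeptide precursors, followed at 1325 ± 97.4 RPKM (chr8:64592542-64693054). Calm2, a calmodulin gene, reached 1268 ± 117 RPKM, and Calm3, which encodes the same protein, reached 736 ± 62.4 RPKM. Cst3, the protease inhibitor cystatin C, stood at 1253 ± 130.1 RPKM, the elongation factor gene Eef1a1 at 1245 ± 63.1 RPKM and the ferritin heavy chain gene Fth1 at 1215 ± 133 RPKM. After these came Snap25, a SNARE protein of synaptic vesicle fusion, at 930.7 ± 85.0 RPKM. Bc1, a short neuronal noncoding RNA of dendrites, stood at 924 ± 299 RPKM, and its gene is 168 bases long, so the same caution on length applies. Others among the 20 highest with a full name were the glycolytic genes Aldoa (870.0 RPKM) and Gapdh (737 RPKM), the calmodulin-binding Nrgn (829 RPKM), the lipid carrier Apoe (814 RPKM), the sodium pump subunit Atp1b1 (805 RPKM), the chaperones Hsp90ab1 (724 RPKM) and Hspa8 (667 RPKM), the matrix protein Sparcl1 (712 RPKM), Selenow (662 RPKM) and the ubiquitin gene Ubb (651 RPKM). Neighbours in this order often differed by less than their SD, as Cst3, Eef1a1 and Fth1 did. Ttr and Bc1 were the only 2 of these 20 with a biological coefficient of variation over 30%, at 54.0% and 31.9%, and Ubb had the smallest at 3.84%.

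The mitochondrial genome encodes 13 subunits of the respiratory chain and the ATP synthase. mt-Co1, the catalytic subunit of cytochrome oxidase, was the most abundant transcript of all at 11144 ± 1234 RPKM (SD, n = 6). mt-Cytb reached 5800.1 ± 583 RPKM, mt-Nd1 5249.8 ± 505 RPKM, mt-Rnr1, the small ribosomal RNA, 3845 ± 452 RPKM and mt-Nd2 3416 ± 269 RPKM. Summed over the 13 genes the level was 41403, 37985, 48626, 35147, 38954 and 40962 CPM in mice 1 to 6, and 9 of the 13 were highest in mouse 3. Mouse 3 also had the largest share of mitochondrial ribosomal RNA, 1.06% of its counts against 0.795% to 0.863%.

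The 13 genes fell into separate levels although they are transcribed from 1 small circular genome. mt-Co2, mt-Co3, mt-Atp6, mt-Nd3 and mt-Nd4l stood at 11.2 to 108 RPKM, mt-Atp8 stood at 4.89 RPKM, and the other 7 stood at 409.6 to 11144 RPKM. Each of the first 5 had a pseudogene on chromosome 1 of the nuclear genome that matched it over at least 98% of its length. The identity was 100% for mt-Co2 with Gm28661, mt-Co3 with Gm28437, mt-Atp6 with Gm10925 and mt-Nd4l with Gm10222, and 99.7% for mt-Nd3 with Gm28438. These pseudogenes lie side by side on the minus strand of chr1:24611535-24616197 (GRCm38), a stretch of mitochondrial DNA once copied into the nuclear genome. mt-Atp8 has no annotated copy of its own there and shares 43 bases with mt-Atp6. mt-Nd4, which matched Gm28439 at 100% over 63.6% of its length, stood at 2666 RPKM. mt-Co1 matched Gm29216 of the same stretch at 99.8% over 31.3% of its length. It also matched Gm13340 on chromosome 2 at 97.6% over 100% of its length. The pair mt-Nd3 and Gm28438 shows how little separates a mitochondrial gene from its copy. Their first 80 bases, from the GENCODE transcripts, are printed with the base that differs in capitals, the substitution T3C counted from base 1 of mt-Nd3, which was the only mismatch in 345 aligned bases.
mt-Nd3: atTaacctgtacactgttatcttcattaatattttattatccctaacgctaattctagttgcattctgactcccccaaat
Gm28438: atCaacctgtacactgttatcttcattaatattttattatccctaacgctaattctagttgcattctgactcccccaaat
A read from within such a stretch fits both places, and how the authors' counting treated reads with several placements is not stated. The values of these 5 genes and of their copies are therefore uncertain. All but mt-Co2, at 14.4%, also had spreads between mice of over 30%, against 9.39% to 15.1% for the other 7. mt-Atp6 stood at 28.6, 265, 34.9, 34.8, 50.8 and 23.4 CPM in mice 1 to 6 with mouse 2 far above the others, mt-Nd4l at 1.14, 34.6, 1.26, 3.57, 1.56 and 25.8 CPM with mice 2 and 6 high, and mt-Co3 at 91.01, 30.6, 37.7, 63.4, 40.7 and 26.9 CPM with mouse 1 highest. By contrast mt-Co1 stood at 17542, 16002, 21139.9, 14749.8, 16449 and 17576 CPM, and its biological coefficient of variation was 12.6%.

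**Figure D3:**
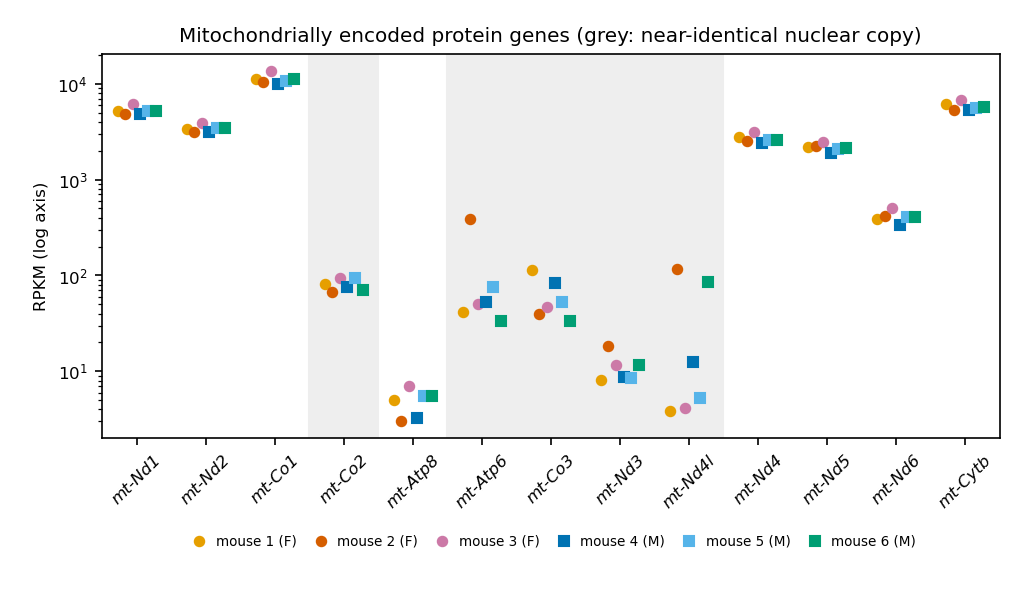
RPKM (vertical log axis) of the 13 protein genes of the mitochondrial genome, in genome order apart from strand, 1 point per mouse, with the genes that have a near-identical nuclear copy on grey. The genes on grey and mt-Atp8 average 4.89 to 108 RPKM, and the other 7 average 409.6 to 11144 RPKM.

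Among the 4 hippocampal fields, the summed lists of CA3 and dentate granule cells varied least between mice, with coefficients of variation of 6.32% and 7.402%, and those of CA1 and CA2 most, with 17.6% and 19.9%. Without mouse 4 the CA1 and CA2 sums varied by 10.7% and 7.92%. By the median spread of single genes the fields did not keep this order, with CA2 at 16.4%, CA3 at 17.2%, dentate at 17.9% and CA1 at 20.6%. The dentate 10 genes summed to 518 to 639.7 CPM, with mouse 5 highest. C1ql2, a secreted synaptic organiser of mossy fibres, stood at 39.0 ± 7.89 RPKM (SD, n = 6), the calcium buffer Calb1 at 31.6 ± 6.48 RPKM and Prox1 at 10.5 ± 1.08 RPKM with a biological coefficient of variation of 9.04%. Calb1 was highest in mouse 5 at 182 CPM against 107 to 139 CPM. Purkinje cells are known to express it too, and their part in this was not tested.

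The CA1 genes differed more, with mouse 4 low and mouse 6 high. Mpped1 stood at 190.2, 202, 200.02, 121, 181 and 245 CPM and Fibcd1 at 120.4, 112, 139, 66.9, 101 and 122 CPM. Of the 8 CA1 genes, 7 were lowest in mouse 4 and 7 were highest in mouse 6, and the sums were 787, 849.7, 809.7, 559, 751 and 983 CPM. Wfs1 varied least of them, at 8.13%, and Ccn3 most, at 30.8%. The same mouse 4 had the thalamic and midbrain transcripts given above, and their part in its low CA1 level was not tested.

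For CA2, the summed level was 361 CPM in mouse 4 and 221 to 273 CPM in the others. Of its 7 genes, 3 were highest in mouse 4, 3 in mouse 6 and 1 in mouse 2, and 2 were lowest in mouse 4. The gene with the largest share of the sum was Pcp4, a small calmodulin-binding protein that thalamus and Purkinje cells also express. Pcp4 stood at 104, 88.8, 96.1, 226, 132 and 99.4 CPM, and the part of other regions in its level was not tested. Cacng5, an auxiliary AMPA receptor subunit, had the largest spread of the list, 50.3%. Rgs14, a regulator of CA2 plasticity, was instead lowest in mouse 4, at 78.6, 81.3, 89.6, 62.8, 90.8 and 95.5 CPM. The CA3 list summed to 272 to 331 CPM. Its kainate receptor gene Grik4 stood at 50.7, 53.8, 55.9, 52.3, 48.9 and 55.8 CPM, with a biological coefficient of variation of 4.74%, and the copine gene Cpne4 at 112, 99.0, 98.2, 94.7, 97.8 and 102 CPM, at 5.84%.

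Of 11 genes of immature neurons and progenitors, which mark adult neurogenesis in the dentate gyrus, 6 reached 1 RPKM. Dcx, the marker of migrating neuroblasts, stood at 18.7, 25.4, 19.6, 20.9, 14.04 and 21.9 CPM, and the proliferation marker Mki67 at 1.79, 1.31, 1.76, 1.33, 1.09 and 1.18 CPM. Neurod1 stood at 56.6 CPM in mouse 5 against 20.7 to 24.05 CPM in the others. Cerebellar granule cells are known to express Neurod1, and their part in this was not tested. Eomes, a factor of intermediate progenitors, stood at 2.07, 1.67, 0.503, 4.22, 1.40 and 0.605 CPM, highest in mouse 4.

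GABAergic interneurons were represented by 14 genes, all above 1 RPKM, whose sum stayed within 1371 to 1605 CPM. Gad1, an enzyme of GABA synthesis, stood at 83.1 ± 5.46 RPKM and varied least, at 5.36%. Pvalb, the calcium buffer of fast-spiking basket cells, varied most, at 31.3%, and was highest in mouse 5 at 85.6 CPM against 38.9 to 54.3 CPM. Purkinje cells express parvalbumin as well, and their part in this was not tested.

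Neuropeptides, stored in dense-core vesicles and in the hippocampus released largely by interneurons, spanned a wide range. Sst led with 309 ± 55.7 RPKM (SD, n = 6), Cck followed with 219 ± 38.6 RPKM and Npy with 45.8 ± 6.78 RPKM. Penk stood at 19.7 ± 3.42 RPKM, Vip at 13.3 ± 3.25 RPKM and Cort at 8.35 ± 2.55 RPKM. Tac1, Nts and Pdyn lay at 6.12, 5.54 and 5.34 RPKM and did not differ beyond their SDs. Tac2, Adcyap1, Crh, Trh and Pomc lay at 3.39, 2.70, 1.70, 1.41 and 1.29 RPKM. The hypothalamic peptides were at the bottom, with Avp at 0.526, Gal at 0.354, Oxt at 0.258 and Agrp at 0.203 RPKM. Between mice, Sst stood at 261, 239, 225, 149.9, 198 and 265 CPM and Cck at 240.4, 234, 248, 187, 309 and 309 CPM, and mouse 4 was lowest for both. Trh was the least even, at 0.371, 4.67, 0.0943, 3.01, 1.06 and 2.39 CPM, a biological coefficient of variation of 90.1%.

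Astrocyte genes were abundant. Glul, which recycles glutamate to glutamine, stood at 524 ± 36.6 RPKM (SD, n = 6). Slc1a2, the main glutamate transporter, stood at 287 ± 34.1 RPKM and Aldoc at 258 ± 10.99 RPKM. None of the 14 genes had a biological coefficient of variation over 30%, and the list's median was 8.15%, while coding genes above 100 CPM had a median of 7.06% and exceeded 30% in 0.547% of cases. Sox9 varied most, at 13.5%.

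Myelin genes moved together between mice. Mbp, which encodes myelin basic protein, stood at 2960.0, 2289, 3239.8, 3684, 3317 and 2234 CPM in mice 1 to 6. Of the 12 oligodendrocyte genes, 9 were highest in mouse 4 and 10 were lowest in mouse 6, with sums of 7023, 5564, 7138, 8429, 7507 and 5251 CPM. Their precursors were steadier, with 9 genes summing to 338 to 371 CPM. Pdgfra, the growth factor receptor of precursors, stood at 7.45 ± 0.573 RPKM, and Olig1 at 60.5 ± 7.83 RPKM.

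Microglia, the resident macrophages, were represented by 14 genes, all above 1 RPKM and none over 30% in spread. Their median spread was 10.9%, while coding genes between 20 and 100 CPM had a median of 7.18% and exceeded 30% in 1.28% of cases. The complement genes C1qa, C1qb and C1qc stood at 40.8, 40.4 and 28.9 RPKM, and Csf1r, the receptor on which their survival depends, at 17.6 ± 1.30 RPKM. 9 of the 14 were highest in mouse 3 and 9 were lowest in mouse 4, with sums of 616, 582, 685, 533, 576 and 626 CPM. The 12 genes of blood-borne leukocytes were near 0, with sums of 0.742 to 2.07 CPM. Cd3e, of T cells, stood at 0.0309 to 0.177 CPM. Haemoglobin of remaining red blood cells was low, with Hbb-bs at 27.5, 21.4, 27.6, 23.3, 20.8 and 21.2 CPM. The globin genes form near-identical pairs, so values of the single copies are uncertain.

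Endothelial genes summed to 439 to 515 CPM. Within them Slc2a1, the glucose transporter of the blood-brain barrier, stood at 147, 83.7, 114, 131, 100.4 and 72.2 CPM and the tight junction gene Cldn5 at 29.7, 43.0, 35.6, 30.9, 48.4 and 56.2 CPM, so the mice highest in one were not highest in the other. Flt1, a receptor for vascular growth factor, was even at 88.01, 91.98, 99.2, 83.0, 90.01 and 85.7 CPM. In smooth muscle, Acta2 stood at 27.7 CPM in mouse 4 against 10.1 to 12.8 CPM, and Tagln at 16.2 CPM against 5.39 to 7.59 CPM, while the pericyte gene Vtn stayed at 59.9 to 69.9 CPM. Of the 12 meningeal genes, 6 were highest in mouse 5 and 6 were lowest in mouse 6, the mice at the same ends of the choroid plexus list, and the sums were 161, 187, 151, 159, 169.9 and 136 CPM. Mgp was highest in mouse 4 at 25.5 CPM, Dcn ranged over 22.8 to 63.6 CPM with mice 2 and 6 high, and Slc13a4 and Igf2 were lowest in mouse 6 at 8.03 and 4.46 CPM against 24.99 to 37.6 and 13.6 to 25.7 CPM.

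Genes of neocortical layers and of striatum were detected in every mouse at low to moderate levels. The 11 cortical genes summed to 398, 458, 410.3, 325, 382 and 496 CPM, and Etv1 at 19.8 ± 2.96 RPKM and Tshz2 at 18.1 ± 3.91 RPKM were the highest. The 10 striatal genes summed to 209.8 to 243 CPM. Ppp1r1b, the phosphatase inhibitor of dopamine-receptive neurons, stood at 32.3 ± 8.72 RPKM, and the dopamine receptor genes Drd1 and Drd2 at 1.63 and 1.18 RPKM. Drd2 was highest in mouse 4, at 6.01 CPM against 1.89 to 2.81 CPM.

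Ionotropic glutamate receptors carry fast excitation. Among AMPA receptor subunits Gria1 led with 146 ± 7.94 RPKM (SD, n = 6), followed by Gria2 with 69.8 ± 5.94, Gria3 with 36.0 ± 2.71 and Gria4 with 12.9 ± 2.08 RPKM, and no 2 neighbours in this order overlapped within their SDs. Gria1 stood at 872, 888, 843, 755, 804 and 912 CPM in the 6 mice, lowest in mouse 4. For NMDA receptors the obligatory subunit gene Grin1 stood at 107 ± 5.98 RPKM, above Grin2b at 27.6 ± 2.56, Grin2a at 17.2 ± 1.05 and Grin2c at 11.1 ± 1.68 RPKM. Grin3a, Grin2d and Grin3b followed at 5.63, 3.39 and 0.473 RPKM. Kainate receptor genes were led by Grik5 at 52.7 ± 3.19 RPKM, while Grik4, Grik3 and Grik2 lay at 8.87, 7.26 and 6.71 RPKM and Grik1 at 3.46 ± 0.701 RPKM. Grik3 and Grik2 did not differ beyond their SDs.

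Of the 8 metabotropic glutamate receptors, which act through G proteins, Grm5 was the highest at 31.7 ± 4.66 RPKM. Grm3, Grm2 and Grm7 stood at 15.5, 12.04 and 11.2 RPKM, and Grm4 and Grm8 at 4.404 and 2.44 RPKM. Grm6, known from retinal bipolar cells, was at 0 counts in all 6 mice. The level of Grm4 was 47.8 CPM in mouse 5 and 15.7 to 28.04 CPM in the others. Cerebellar granule cells are a known site of Grm4, and their part in this was not tested. Grm4 was the 1 member of this family with a spread over 30%, which held for 6.45% of all genes averaging 1 CPM or more.

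GABA-A receptors are pentamers that usually join alpha and beta subunits with a gamma or a delta subunit. Gabra5, the alpha subunit of extrasynaptic receptors characteristic of the hippocampus, stood at 57.6 ± 7.03 RPKM (SD, n = 6), and Gabra4, Gabra2 and Gabra3 stood at 29.2 ± 2.71, 25.4 ± 8.63 and 21.9 ± 3.88 RPKM, where Gabra2 overlapped with both neighbours within the SDs. Gabrb2 at 26.2 ± 5.65 RPKM was above Gabrb1 at 12.9 ± 1.57 RPKM. Gabrg1 and Gabrg3 stood at 6.86 and 2.20 RPKM. Gabrd, the delta subunit of tonic inhibition in granule cells, stood at 15.1 ± 2.87 RPKM. Gabrq, Gabre and Gabrp were below 1 RPKM, at 0.187, 0.0896 and 0.00953 RPKM. Apart from Gabra6, the member with the largest spread was Gabra2, at 116, 229, 95.3, 164, 167 and 118 CPM in mice 1 to 6, highest in mouse 2. The mean of 3.77 RPKM for Gabra6 came almost wholly from mouse 5, at 22.5 RPKM, and in the other 5 mice it was 0 to 0.0749 RPKM.

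Genes of synaptic vesicles and release were abundant. None of 16 exceeded 30% in spread, and their median was 7.68%, where coding genes above 100 CPM had a median of 7.06% and exceeded 30% in 0.547% of cases. Syp, an integral vesicle protein, stood at 524 ± 23.2 RPKM, the vesicular glutamate transporter gene Slc17a7 at 402 ± 36.6 RPKM, the SNARE gene Vamp2 at 324 ± 15.9 RPKM and the calcium sensor gene Syt1 at 309.8 ± 27.7 RPKM. Sv2a varied least, at 4.09%, and Sv2b most, at 14.1%. 12 of the 16 were highest in mouse 6 and 11 were lowest in mouse 4, with sums of 13465, 13019, 13359, 11712, 12817 and 14656 CPM. The 21 genes of postsynaptic scaffolds and calcium/calmodulin signalling followed the same order at the ends, with 14 highest in mouse 6 and 11 lowest in mouse 4. Camk2a, the kinase of synaptic potentiation, stood at 600.0 ± 55.98 RPKM and Camk2b at 232 ± 10.98 RPKM. The scaffold gene Dlg4 stood at 63.7 ± 3.23 RPKM. Homer1, whose short form is induced by activity, stood at 217, 160.4, 134, 137, 121 and 155 CPM, highest in mouse 1, and shared with Homer3 the largest spread of this list, at 22.03% and 22.1%.

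For neurotrophin signalling, the receptor gene Ntrk2 stood at 40.2 ± 2.59 RPKM and its ligand gene Bdnf at 7.84 ± 1.01 RPKM. Ntrk3 stood at 9.23 ± 0.997 RPKM with its ligand gene Ntf3 at 2.91 ± 0.326 RPKM. Between mice Bdnf ranged over 39.8 to 61.1 CPM, with mouse 6 highest and mouse 4 lowest.

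None of the 16 glycolytic genes exceeded 30% in spread, and their median of 6.58% lay near the 7.06% of coding genes above 100 CPM. Among them Pgk1 and Pfkm varied least, at 3.97% and 4.06%. The 50 genes of cytosolic ribosomal proteins shifted as a block. 42 of them were highest in mouse 3, the other 8 were highest in mouse 5, 41 were lowest in mouse 2 and 9 were lowest in mouse 4. The sums were 8825, 8214, 10245, 8489, 9610.4 and 9285 CPM in mice 1 to 6, a range of 1.25-fold. Rplp1 led them at 639.7 ± 58.9 RPKM. The median log2 level of the 50 genes against the mean of the mice was -0.16 in mouse 2, 0.17 in mouse 3 and 0.09 in mouse 5. Ribosomal protein RNAs are short, and short RNAs in general shifted in the same direction in these mice, but by less. Over the 2240 nuclear coding genes with the shortest RNAs, under 2.05 kilobases, the median log2 level against the mean of the mice was -0.09 in mouse 2, 0.05 in mouse 3 and 0.05 in mouse 5. Over the longest, from 5.96 kilobases, it was 0.07, -0.03 and -0.07. The part of RNA length, RNA quality or library preparation in the ribosomal shift was not tested. Among heat shock proteins, the constitutive Hsp90ab1 and Hspa8 varied by 4.26% and 4.44%. The inducible Hspa1a and Hspa1b, near-identical copies whose single values are uncertain, were both highest in mouse 3. Hspa1a stood at 12.1, 8.46, 19.6, 12.1, 9.99 and 10.4 CPM and Hspa1b at 22.5 CPM in mouse 3 against 10.5 to 13.9 CPM in the others.

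Several abundant long noncoding RNAs that stay in the nucleus differed strongly between mice. Malat1, a component of nuclear speckles, stood at 806, 1097, 827, 1791, 838 and 559.7 CPM in mice 1 to 6. Meg3, an imprinted RNA of neurons, stood at 1144, 1702, 1099, 2730.0, 850.2 and 731 CPM, Snhg11 at 645, 871, 564, 1385, 486 and 394 CPM and Miat at 229.7, 324, 220.3, 457, 184 and 157 CPM. Neat1, the scaffold of paraspeckles, stood at 90.1, 100.5, 103, 208, 124 and 63.7 CPM. Mouse 4 was highest and mouse 6 lowest for each of these 5. Of the 13 listed long noncoding RNAs outside the X chromosome 9 were highest in mouse 4 and 7 were lowest in mouse 6, and their sums were 3853, 5143, 3646, 7642, 3309 and 2853 CPM. Not all followed this. Peg13, another imprinted RNA, stood at 260.0 to 319.9 CPM, and Pantr1 was lowest in mouse 4 at 27.8 CPM. By RPKM, the 10 highest fully named long noncoding RNAs were Bc1, Malat1 (142 ± 65.2 RPKM, chr19:5795690-5802672), Meg3 (88.4 ± 49.8 RPKM), Gas5 (75.1 ± 6.52 RPKM), Oip5os1 (73.4 ± 9.76 RPKM), Peg13 (59.6 ± 4.10 RPKM), Chn1os1 (50.3 ± 10.1 RPKM), Miat (28.8 ± 12.8 RPKM), Rian (22.8 ± 3.77 RPKM) and Zfas1 (21.5 ± 3.16 RPKM). Snhg11, typed as protein-coding by the annotation, stood at 124 ± 65.0 RPKM. Gas5, a host of small nucleolar RNAs, was even between mice at 8.50%.

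Most genes differed little between mice. Among 15572 genes averaging 1 CPM or more, the median biological coefficient of variation was 9.04%, the middle 50% of genes lay between 5.63% and 15.1%, and 595 genes showed no spread beyond counting error. Above 30% lay 1004 genes (6.45%), and above 100% lay 38. For protein-coding genes outside the sex chromosomes the median fell from 18.1% between 1 and 5 CPM to 10.3% between 5 and 20, 7.18% between 20 and 100 and 7.06% above. For long noncoding RNA genes the medians in these ranges were 16.6%, 13.1%, 12.3% and 19.7%. Thus above 20 CPM the median of long noncoding RNAs was the larger, on 60 and 14 genes, and between 1 and 5 CPM it was the smaller, on 953 genes.

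**Figure D4:**
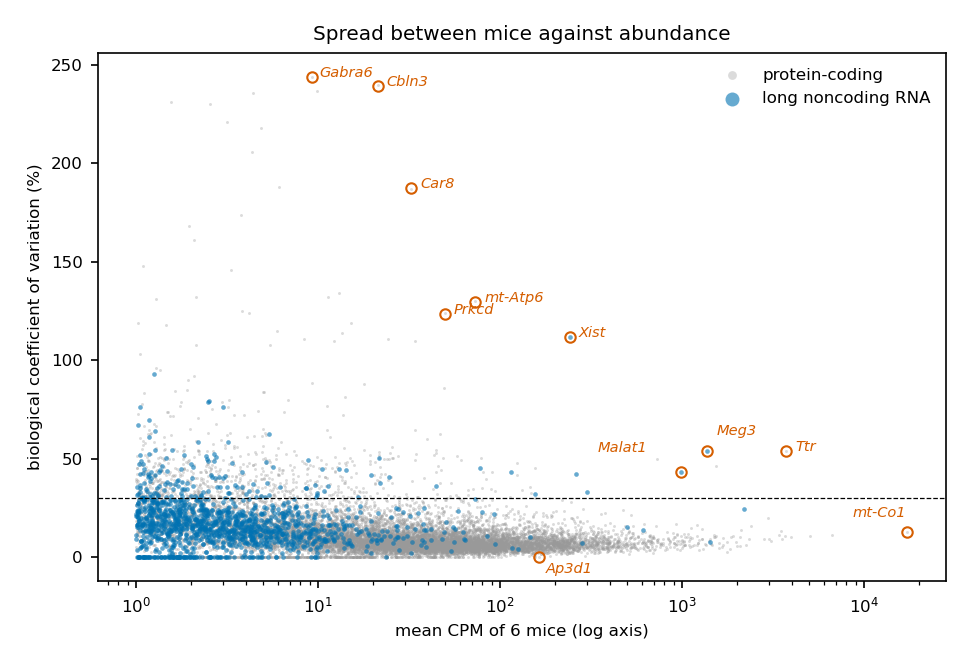
Biological coefficient of variation between the 6 mice (vertical axis, %) against mean CPM (horizontal log axis) for each protein-coding gene (grey) and long noncoding RNA gene (blue) that averaged 1 CPM or more, with a dashed line at 30%. Most genes lie below the line, while Gabra6 at 244%, Cbln3 at 239.5%, Car8 at 187% and the circled RNAs Meg3 and Malat1 lie above it.

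Among fully named genes with at least 50 CPM, Ap3d1, a subunit of a vesicle coat, had the smallest total coefficient of variation, 0.932%, at 166, 162, 162, 162, 162 and 164 CPM. Smarcc2 and Smarca4, subunits of the SWI/SNF chromatin remodeller, varied by 1% and 1.41%, and the arginyltransferase gene Ate1 by 1.16%. The others of the 15 steadiest were Mbtps1, Ipo9, Kmt5b, Gnpat, Luzp2, Ccar2, Ccdc47, Vma21, Slc35b4, Ddx42 and Stim1, none above 1.76%. In 12 of the 15 the spread was no larger than counting error.

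The least steady genes came from few mice. Of 963 genes over 30% outside the sex chromosomes, the mouse farthest from the median was mouse 6 for 365, mouse 4 for 337 and mouse 5 for 124, and mouse 1, 2 or 3 for 33, 49 and 55. Mouse 6 was below the median for 321 of its 365, and mouse 4 above it for 317 of its 337. Among the 25 fully named genes with the largest spread and at least 5 CPM were, besides those given, the cerebellar Fat2 (237%) and Cbln1 (111%). Rab37, Synpo2, Ramp3, Rgs16, Hcn4, Patj, Ret and Baiap3 were highest in mouse 4, with spreads of 76.8% to 115%. Grid2ip and Zic1 were high in both mice 4 and 5. Grid2ip stood at 2.17, 2.12, 1.57, 15.2, 10.2 and 1.31 CPM, and Zic1 at 107 and 100.5 CPM in these mice against 10.3 to 33.9 CPM. With mice 1, 2 and 3 alone the median spread was 6.06% and 446 genes exceeded 30%. With mice 4, 5 and 6 alone these were 9.50% and 1648. Those trios are also the females and the males, so sex and the libraries that stand apart cannot be told apart here.

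Genes that respond within minutes to hours to the state of an animal were followed as a group of their own. Immediate early genes are switched on by neuronal activity through calcium and CREB or serum response factor. Fos stood at 17.3, 28.7, 15.5, 14.5, 20.8 and 14.6 CPM in mice 1 to 6, Arc, a capsid-like synaptic protein, at 123, 189, 148, 86.2, 165 and 121 CPM, Btg2 at 17.5, 40.5, 17.6, 13.8, 22.04 and 21.6 CPM, Egr2 at 2.72, 7.22, 2.99, 2.65, 3.39 and 1.66 CPM and the phosphatase gene Dusp1 at 21.4, 35.5, 19.7, 22.8, 27.4 and 21.9 CPM. Mouse 2 was highest in each of these 5. Of the 19 immediate early genes, 13 were highest in mouse 2 and 13 were lowest in mouse 4, and 4 had a spread over 30%. Over the 11197 nuclear coding genes of at least 5 CPM, 13.3% were highest in mouse 2 and 23.1% were lowest in mouse 4. A spread over 30% held for 6.45% of all genes averaging 1 CPM or more. Npas4, which responds to depolarisation in neurons alone, stood at 7.24, 13.3, 5.03, 9.02, 8.90 and 15.4 CPM, highest in mouse 6. The sums were 1073, 1314, 1052, 807, 1073 and 1046 CPM.

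Btg2 and Dusp1 were the 2 genes of this list whose promoter in the RefSeq table held the full palindrome TGACGTCA, the classic binding sequence of CREB. The 250 bases before their start are shown, Btg2 at chr1:134079156-134079405 and Dusp1 at chr17:26508473-26508722 (both minus strand, GRCm38.p6), with the palindrome in capitals.
Btg2: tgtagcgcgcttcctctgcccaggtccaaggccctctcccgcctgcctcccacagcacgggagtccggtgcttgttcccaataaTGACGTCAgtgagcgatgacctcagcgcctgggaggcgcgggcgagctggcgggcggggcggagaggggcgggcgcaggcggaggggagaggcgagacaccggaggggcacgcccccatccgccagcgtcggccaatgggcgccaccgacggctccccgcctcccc
Dusp1: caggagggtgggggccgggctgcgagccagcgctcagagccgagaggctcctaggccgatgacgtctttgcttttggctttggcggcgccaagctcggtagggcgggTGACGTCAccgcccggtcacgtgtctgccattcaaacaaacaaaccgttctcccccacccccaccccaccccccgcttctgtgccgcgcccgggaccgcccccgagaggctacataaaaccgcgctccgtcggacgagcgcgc
Both strands were searched, and the palindrome is its own complement. It was in 1.55% of all 32851 promoters of the table, and in 2 of 18 promoters of the 14 listed genes in it. A match describes the letters and not binding in these mice.

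Targets of the glucocorticoid receptor, which report the stress hormone corticosterone, set mice 1 and 4 above the rest. Sgk1 stood at 165, 78.9, 128, 215, 108 and 50.9 CPM, Tsc22d3, the leucine zipper protein also called GILZ, at 124, 60.9, 96.5, 124, 72.7 and 55.1 CPM, and the lipid droplet gene Plin4 at 8.23, 2.45, 3.62, 11.9, 1.81 and 1.75 CPM. Of the 10 genes, 6 were highest in mouse 4 and the other 4 in mouse 1, and the sums were 518, 305, 389, 539, 329 and 257 CPM. Mouse 4 was high for oligodendrocyte genes too, and oligodendrocytes are known to express Sgk1 strongly, and their part in this was not tested. Fkbp5, a chaperone of the receptor, varied less, at 74.6, 55.7, 58.4, 63.4, 51.0 and 61.2 CPM and a spread of 13.1%. The hour of day and the handling before tissue collection are not given in the labels.

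Interferon-stimulated genes, which restrict viruses and act downstream of the interferon receptors, were low at baseline and highest in mouse 3. Ifit3, which binds viral RNA, stood at 5.44, 6.14, 11.9, 6.40, 5.14 and 5.19 CPM, the ubiquitin-like Isg15 at 0.897, 1.37, 2.55, 1.47, 1.34 and 1.15 CPM, Bst2, which tethers virions, at 7.02, 6.69, 10.6, 6.28, 8.06 and 3.41 CPM and Usp18, which limits the pathway, at 1.30, 2.06, 2.33, 0.943, 0.840 and 0.701 CPM. 12 of the 14 genes were highest in mouse 3, and 8 were lowest in mouse 6. The sums were 99.3, 108, 144, 105, 109 and 78.5 CPM. Ifi27 was the most abundant at 39.0 ± 8.93 RPKM (SD, n = 6), and Rsad2 the least, at 0.535 ± 0.0807 RPKM. Mouse 3 also had the highest microglial sum, 685 CPM. Ifit3 and Ifit3b are close copies of each other, so their single values are uncertain.

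The promoters of Ifit3 and Isg15 show the sequence that interferon-activated factors bind. It was searched as TTTC followed after 2 bases of any kind by a further TTTC, on both strands in the 250 bases before the start, and every match is in capitals. Ifit3 is at chr19:34583279-34583528 on the plus strand, with 2 matches, and Isg15 at chr4:156200819-156201068 on the minus strand, with 3 overlapping matches that read on the opposite strand (GRCm38.p6, RefSeq).
Ifit3: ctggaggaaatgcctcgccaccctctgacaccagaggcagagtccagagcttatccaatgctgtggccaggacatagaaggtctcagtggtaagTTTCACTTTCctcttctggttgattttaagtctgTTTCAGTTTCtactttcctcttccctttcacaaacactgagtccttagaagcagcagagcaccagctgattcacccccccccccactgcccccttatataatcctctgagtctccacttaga
Isg15: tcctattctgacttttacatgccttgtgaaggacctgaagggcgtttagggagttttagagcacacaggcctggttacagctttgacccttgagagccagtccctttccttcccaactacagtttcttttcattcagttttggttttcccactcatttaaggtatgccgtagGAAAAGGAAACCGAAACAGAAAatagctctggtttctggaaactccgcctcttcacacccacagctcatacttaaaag
Of 10 interferon-stimulated genes in the table, 6 had a match, namely Bst2, Ifit1, Ifit3, Ifit3b, Isg15 and Rsad2. Over all promoters the share was 2.98%. Of these 6, Ifit1, Ifit3, Ifit3b, Isg15 and Bst2 were highest in mouse 3, at 4.84, 11.9, 6.35, 2.55 and 10.6 CPM, and Rsad2 was highest in mouse 2, at 2.38 CPM. Over all 14 listed genes, 12 were highest in mouse 3. Only 10 of the 14 had a promoter in the table, and whether a match goes with this order was not tested.

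Clock genes summed to 1081 to 1235 CPM over 14 genes, while the single members spread more, with a median of 14.7% against 9.04% over all genes. Tef stood at 69.4 ± 3.75 RPKM and Nr1d1, the repressor REV-ERB alpha, at 51.5 ± 5.75 RPKM. Dbp and Per1 rise and fall over the day. Dbp stood at 63.1, 59.0, 90.9, 75.9, 65.8 and 46.3 CPM and Per1 at 57.6 to 95.7 CPM, with mouse 3 highest and mouse 6 lowest for both. Arntl, which cycles in the opposite phase, stood at 31.9, 35.7, 22.9, 26.4, 31.3 and 36.1 CPM, with mouse 3 lowest and mouse 6 highest. Ciart was the 1 member of the 14 with a spread over 30%, at 33.6%, and such a spread held for 6.45% of all genes averaging 1 CPM or more.

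**Figure D5:**
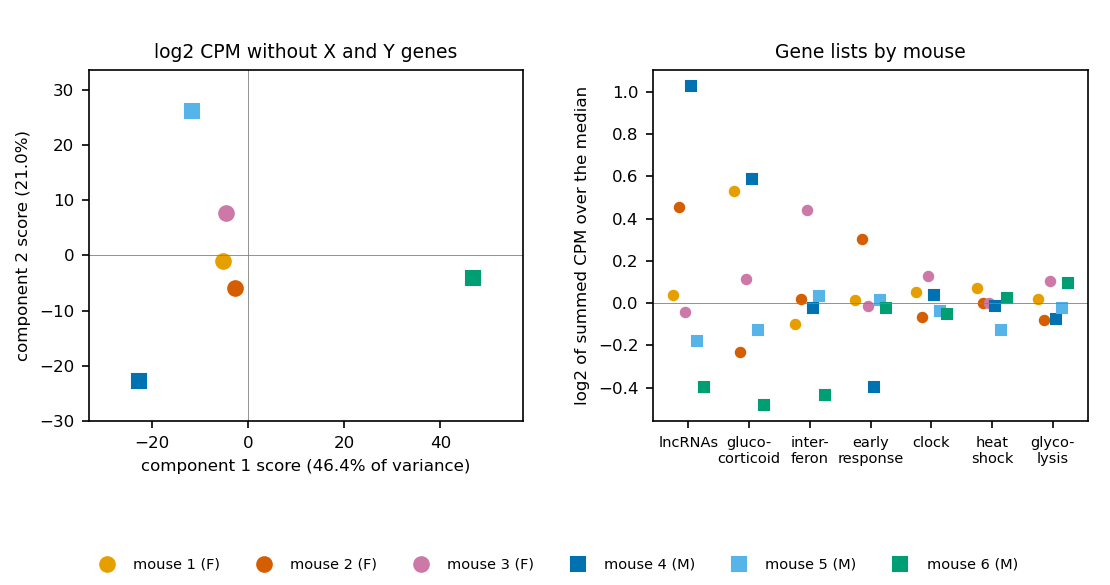
Left, scores of the 6 mice on the first 2 principal components of log2 CPM without X and Y genes. Right, log2 of each list's summed CPM over the median of the 6 mice. Mouse 6 is alone at the right of component 1, mice 4 and 5 are at the ends of component 2, and mouse 4 is highest for long noncoding RNAs outside the X chromosome.

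Principal components of log2 CPM separated the mice along the same lines. Without genes of the X and Y chromosomes, component 1 held 46.4% of the variance, with mouse 6 at a score of 46.8 and the other 5 between -22.6 and -2.73. The genes lowest in mouse 6 on it were led by Tmem72, Ttr, Kcne2, Folr1, F5 and Slc4a5, all choroid plexus genes. The genes at its other end were led by mt-Nd4l, whose values are uncertain as said above, and by the low-abundance Lefty2 and Capn11. Component 2 held 21.0% and set mouse 5 at 26.2 against mouse 4 at -22.7. Its ends were Gabra6, Fat2, Cbln3, Crtam and Ppp1r17 for mouse 5 and Slc6a3, Shox2, Tnnt1, Slitrk6 and Dlk1 for mouse 4. With the X and Y genes included, component 1 held 42.4%. With the listed marker genes of choroid plexus, ependyma, thalamus, cerebellum and midbrain left out as well as X and Y genes, it held 45.6%.

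Between the 3 females and the 3 males, 5 of 18370 tested genes passed the test (edgeR's quasi-likelihood test, Benjamini-Hochberg adjusted p under 0.05), 0.0272% of all tested. All 5 were on the sex chromosomes. Xist, the RNA that coats the inactive X chromosome, stood at 455, 580.3, 412, 0.0884, 0.0934 and 0 CPM in mice 1 to 6, 45561 counts in the females together and 6 in the males (log2 difference 12.85, SE 0.30, edgeR adjusted p = 6e-07). The Y-linked genes Ddx3y, Eif2s3y, Kdm5d and Uty, partners of X-linked genes with roles in translation and chromatin, had no counts in the females. Ddx3y stood at 75.7, 65.5 and 64.1 CPM in the males, at least 2167-fold higher when the females are set to a floor of 3 counts over the group. By the same floor Eif2s3y was at least 973-fold, Kdm5d at least 773-fold and Uty at least 531-fold higher. Their edgeR adjusted p-values were 7.6e-06, 0.0025, 4.5e-05 and 0.00013. In all 6 mice these 5 genes matched the labelled sex.

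The X-linked partners, which escape X inactivation, stood higher in females without passing edgeR's test. Eif2s3x stood at 77.6, 85.8, 77.8, 49.4, 51.1 and 57.1 CPM, a female mean 1.53 times the male mean (log2 difference 0.62, SE 0.08, edgeR adjusted p = 0.14). Kdm6a, Kdm5c and Ddx3x stood at 1.42, 1.37 and 1.30 times the male mean. Pbdc1, another listed X-linked gene, stood at 1.14 times. Its sexes overlapped, at 16.8 to 18.4 CPM in females and 13.4 to 18.3 CPM in males. Kdm6a, Kdm5c, Ddx3x and Pbdc1 each had an edgeR adjusted p of 1.00. Eif2s3x passed under some alternatives, with an adjusted p of 3.6e-06 by DESeq2, 0.0079 by edgeR with no filter, 0.0019 by edgeR over all 17 libraries and 0.037 by edgeR without mouse 6. In Eif2s3x, Kdm6a, Kdm5c and Ddx3x the 3 females lay above the 3 males, which held for 5.86% of the 597 tested X-linked genes, and groups that did not overlap, in either direction, made up 7.61% of all tested genes.

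No autosomal gene of 17766 passed the test. At an unadjusted p under 0.05 there were 474 autosomal genes, and 497 among all tested genes, of which 5% would be 918. DESeq2 gave 7 calls, Eif2s3x among them, and limma-voom 6, each with 0 autosomal. Mice 4 and 5 carried transcripts of other regions and mouse 6 nearly lacked those of the choroid plexus, so a difference between the sexes of modest size could not be separated from these, and their part was not tested. Without mouse 6 the count rose to 13, of which 6 were autosomal. The autosomal genes were Grid2ip, Zic1, Zic2, Rnf152, Plekhd1 and Syt2, all higher in the remaining males. Grid2ip had the largest of these differences (log2 -2.69, edgeR adjusted p = 0.0032), and Zic1 and Zic2 differed by -1.96 and -1.14. Both Zic genes are also in the cerebellar list, which was written after the values were seen. The remaining males were mice 4 and 5, which held thalamic and cerebellar transcripts, and the part of those transcripts in these calls was not tested.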

How the data were processed

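Hippocampal polyA RNA of 6 wild-type mice was measured by RNA-seq. The submitters' processing notes name HISAT2 2.1.0 and HTSeq 0.6.1 beside SAMtools 1.5, FastQC 0.11.5 and bcl2fastq, with the build GRCm38. Raw gene counts were deposited by the authors, under names that give GENCODE release 24. The authors also deposited RPKM. Dividing count by total and RPKM returned a single length for each gene, with a largest relative spread of 5.3e-14. Strand setting, treatment of reads with several placements and the definition of length are not given in the sources used here, so values of overlapping, antisense and near-identical genes are uncertain. Positions came from GENCODE release 21 on the same build, and promoters from RefSeq.

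Groups came from the labels. Library totals ran from 30395437 to 32855277 counts, and TMM factors 0.976 to 1.03. Counts were analysed with R 4.3.3, edgeR 4.0.16, limma 3.58.1 and DESeq2 1.42.0, and with Python 3.11.15, numpy 2.4.6 and pandas 2.3.3. Copies of mitochondrial genes were sought with BLAST 2.17.0. The sex test was edgeR's quasi-likelihood test on genes kept by filterByExpr (minimum count 10), with 4 residual degrees of freedom, and was tested on simulated data, as was the estimate of spread. Log2 CPM used a prior count of 2. No molecular identifiers are recorded, so floors on counts take in counting error and nothing else.

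The 39 gene lists were chosen with earlier results of these data known, and 3 more after the values were seen (cerebellum, midbrain, and the long noncoding RNAs without Xist and Tsix). Named genes followed a rule: the 20 highest nuclear, 5 highest mitochondrial and 10 highest long noncoding RNAs by RPKM with a full name, list members by level and spread, the 25 most and 15 least variable genes, called genes, and the ends of the components. Clone-based names, and list members named beyond this rule, were singled out after their values were seen. Some genes that the rule names are not reported here. Alternatives changed the normalization, filter, pseudocount, tool, covariate and libraries.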

Additional observations from a re-analysis of the deposited data

Results flagged for a closer look

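Values of a single mouse were set against the other 5 by Dixon's ratio, the gap to the nearest mouse over the whole range, with a critical value of 0.625. Of 111 library measures, list sums and genes shown by mouse, 27 passed it, and chance gives about 1 in 20. The genes were chosen with their values known, so this number is a description. Of the 27, 12 belonged to mouse 4, 5 to mouse 5, 4 to mouse 6, 3 to mouse 2, 3 to mouse 3 and 0 to mouse 1.

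Mouse 6 was lowest for the choroid plexus sum (255 CPM) and for Enpp2 (164 CPM), Tmem72 (0.159 CPM) and Otx2 (0.510 CPM). For Ttr the ratio fell short of the critical value because mouse 5 widened the range from above. Mouse 5 was highest for the cerebellar sum (1519.9 CPM), Gabra6 (55.5 CPM), Cbln3 (126 CPM), Car8 (157 CPM) and Pcp2 (22.7 CPM).

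Mouse 4 was highest for the sums of thalamus and habenula (738 CPM), midbrain dopamine neurons (182 CPM) and CA2 (361 CPM). It was also highest for Prkcd (174 CPM), Tnnt1 (29.6 CPM), Tcf7l2 (48.4 CPM), Slc17a6, the vesicular glutamate transporter of the thalamus (93.1 CPM), Rora (120.3 CPM), Th (8.90 CPM), Slc6a3 (25.5 CPM), Pcp4 (226 CPM) and the smooth muscle gene Acta2 (27.7 CPM).

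Mouse 2 was highest for mt-Atp6 (265 CPM), Btg2 (40.5 CPM) and Egr2 (7.22 CPM). Mouse 3 was highest for Ifit3 (11.9 CPM), Isg15 (2.55 CPM) and the share of mitochondrial ribosomal RNA (1.06%).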

How the results depend on the processing

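The number of genes that differed between the sexes was 5 to 7 under each alternative tool, scaling, filter, covariate and threshold, with the same 5 genes in each. It was 5 to 13 when 1 mouse was left out, and the 13 came without mouse 6. The median biological coefficient of variation of 9.04% was 11.8% with no filter, 7.50% over genes of at least 10 CPM, 10.2% as the total spread of log2(RPKM + 0.1), 8.17 to 9.40% without 1 mouse and 6.06% in mice 1, 2 and 3. Of genes over 30%, 1004 in the main count, there were 186 at 10 CPM or more, 755 to 1153 without 1 mouse, 446 in mice 1, 2 and 3 and 1648 in mice 4, 5 and 6. The settings with 3 mice, and the components without marker genes, were chosen after seeing the data. At 1 RPKM or more lay 14135 to 14298 genes without 1 mouse, 13078 in every mouse and 21306 at 0.1 RPKM. The 10 most abundant genes held 3.09% of counts without mitochondrial genes, 13.4% of summed RPKM and 5.39 to 5.70% without 1 mouse. Of the list levels, thalamus and habenula fell from 70.9 to 45.3 summed RPKM without mouse 4, and the cerebellar list from 121 to 86.2 without mouse 5. No paired analysis was possible because the labels link no female to a male. Between 1 and 5 CPM counting error alone gave a median coefficient of variation of 11.8%, which limits what can be said of the spread there.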

Other observations

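Malat1, Meg3, Snhg11, Miat and Neat1, singled out for this after their values were seen, were highest in mouse 4 and lowest in mouse 6. Long noncoding RNA genes as a class did not share this order. Over the 359 long noncoding RNA genes with at least 5 CPM outside the X and Y chromosomes, 141 (39.3%) were highest in mouse 6 and 142 (39.6%) were lowest in mouse 4. Of the 14 among them with at least 100 CPM, 5 were highest in mouse 4 and 5 in mouse 6, with median log2 levels against the mean of 0.05 and 0.01. Over 11197 nuclear protein-coding genes of at least 5 CPM, the shares highest in mouse 6 and lowest in mouse 4 were 23.5% and 23.1%. The median log2 level of all 359 long noncoding RNAs against the mean of the mice was 0.10 in mouse 6 and -0.12 in mouse 4. Gm42418, a clone-named gene at chr17:39846958-39848788, held more counts than any other gene that the annotation types as long noncoding RNA. It was singled out for that and stood at 2125, 2203, 1585, 1665, 2650.0 and 2955 CPM, with mice 5 and 6 high. The type is the annotation's, and the origin of these reads was not tested.

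Gene length went with small shifts between mice in nuclear coding genes. Over the 20% of genes with the longest span in the genome, from 85.9 kilobases, the median log2 level against the mean was 0.05 in mouse 2 and -0.06 in mouse 5. Over the 20% with the shortest span, under 9.46 kilobases, it was -0.07 in mouse 2 and 0.04 in mouse 5.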
